A study of Arabidopsis thaliana with 72 samples.

Results

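Roots of Arabidopsis thaliana seedlings labelled phl2 and phl3, both grown with phosphate, were set against each other across all genes. The comparison takes the 3 libraries of each genotype, 6 of the 72 in the series, chosen by genotype and medium. The table holds 33602 genes, of which 21206 were tested. PHL2 and PHL3 belong to the PHR1 family, MYB-type transcription factors that bind a short element, the P1BS site, in promoters of phosphate starvation genes. PHR1 is the best known member, and in plants with enough phosphate SPX proteins hold it away from its targets. PHL2 and PHL3 are close relatives of PHR1 with overlapping roles in the starvation response.

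Besides these mutants the series holds Col-0 (Col) and further mutants of PHR1, PHL1, PHL2, PHL3 and PHL4. Each genotype was grown on plates with sufficient phosphate (+Pi) or deficient in it (-Pi), with 3 libraries per group made from oligo(dT)-selected RNA. Roots were taken from seedlings 8 days old, on plates that held sucrose and either agar or agarose. The labels do not tell agar from agarose by library, name no allele or line, and do not say that the 3 libraries of a group came from separate plates. P-values therefore rest on the spread between libraries within a group, which may be technical. That spread was pooled over every group of the series, not taken from the compared libraries alone, unless a smaller fit is named. Other groups used for comparison are Col under +Pi, phl2 and phl3 under -Pi, and the double mutants phr1phl2 and phr1phl3 under +Pi.

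Levels are RPKM as deposited (reads scaled by gene length and depth). Fold changes are phl2 over phl3 on the log2(RPKM + 1) scale ± SE, which understates changes of low genes. They come from 1 limma fit of all 72 libraries, with adjusted p-values by Benjamini-Hochberg over all genes tested. A gene is called where the adjusted p is under 0.05 and the log2 fold change is 1 or more in either direction.

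The 6 libraries were alike in bulk measures. Their RPKM summed to 565187 to 593835, against 559809 to 742047 over all 72 libraries. Between 18321 and 18633 genes reached 1 RPKM. Chloroplast genes took 0.997% to 1.26% of the RPKM and mitochondrial genes 1.52% to 2.97%. The steps between low values gave a depth of about 14.4 to 23.1 M reads. That estimate is rough, since 30.0% to 46.6% of low values fell within 0.05 of a whole read.

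One library stood apart from its group. Of 14404 genes with a mean of at least 4 RPKM, 102 were at least 2-fold higher in phl3 replicate 1 than in both other phl3 libraries. The same count was 6 and 2 for phl3 replicates 2 and 3, and 2, 4 and 2 for the phl2 libraries. In the other direction, 49 genes were at least 2-fold lower in phl3 replicate 3 than in both others. Across all genes tested, phl3 replicate 1 correlated with the phl2 libraries at r = 0.989 to 0.990 and with phl3 replicates 2 and 3 at r = 0.985 and 0.983, as a description over genes that are not independent. Where a +Pi fold change described in these Results moved by over 1.5 times, or its call changed, without phl3 replicate 1, the value or adjusted p without it is given there. For further genes of the test between media such values are given with the flagged results. Reversals of sign with that library alone are given at the close. Col replicate 1, used for comparison, stood apart more strongly, with 924 genes at least 2-fold above both other Col libraries and 767 below.

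The targeted genes were read first. PHL2 stood at 1.81, 1.59 and 0.924 RPKM in the phl2 libraries and at 21.9, 21.3 and 19.4 RPKM in those labelled phl3. Col under +Pi held 21.3, 14.5 and 17.2 RPKM. The phl2 libraries lay below those of phl3 and Col, and PHL2 was lower in phl2 by a log2 fold change of -3.18 ± 0.16 (limma, adjusted p = 7.2e-22). Over the series, the 24 libraries with phl2 in the label held 0.675 to 4.38 RPKM and the 48 others 12.2 to 37.2 RPKM.

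PHL3 did not follow its label. It stood at 6.81, 7.16 and 6.94 RPKM in phl2 and at 9.18, 8.05 and 6.31 RPKM in the libraries labelled phl3, so the groups overlapped. The log2 fold change was -0.14 ± 0.26 (95% interval -0.67 to 0.39; limma, adjusted p = 0.98). Col under +Pi ranged from 5.65 to 13.9 RPKM. The 6 libraries labelled phr1phl3 held 1.93 to 3.87 RPKM, below the 3.99 to 15.6 RPKM of the 54 libraries with no phl3 in the label, whereas the 6 labelled phl3 alone held 6.31 to 16.3 RPKM and the 6 of the quadruple mutant phr1phl1phl2phl3 5.45 to 16.4 RPKM. A transcript count does not show whether a full-length or functional transcript was made. In all that follows, phl3 stands for the libraries labelled phl3, and no direction below is ascribed to loss of PHL3.

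The other members of the family were at like levels. PHR1 (AT4G28610) held 22, 22.8 and 22.4 RPKM in phl2 and 22.6, 17.57 and 18.6 RPKM in phl3, a log2 fold change of 0.19 ± 0.14 (limma, adjusted p = 0.80). PHL1 differed by -0.01 ± 0.12 and PHL4 by -0.10 ± 0.21 on the log2 scale, with adjusted p of 1.0 and 0.98 by limma. Neither group's libraries separated from the other's for these 3 genes. Without phl3 replicate 1 the fold changes were 0.29 for PHR1 (AT4G28610), -0.04 for PHL1, -0.18 for PHL4 and -0.03 for PHL3, none past the test.

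Across all genes, few differed between the genotypes. Limma called 43 genes higher and 12 lower in phl2, 55 in all or 0.259% of the genes tested (0.203% higher and 0.0566% lower). At an adjusted p under 0.05 with any fold there were 194 genes (0.915%), 145 higher and 49 lower, (0.684% and 0.231%). An unadjusted p under 0.05 was found for 2024 genes (9.54%). Among the 66 pairs of genotypes under +Pi in the same fit, this pair had the third fewest calls, after phr1 against phl1 with 20 and phl3 against phr1phl1 with 21. The median log2 fold change over all genes was 0.01.

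The count rested on single libraries. Leaving out phl3 replicate 1 gave 117 genes higher and 16 lower, while leaving out phl3 replicate 2 or 3 gave 8 higher and 9 lower, or 6 higher and 14 lower. Without phl2 replicate 1, 2 or 3 the calls were 17 higher and 10 lower, 19 and 10, and 17 and 12. Of the 55 genes, 13 were called whichever library was left out, 8 of them lower in phl2 and 5 higher. The lower ones were PHL2, CAB1, CAB2, CAB3, AT5G33355, AT2G10940, AT5G35940 and AT4G04223. The higher ones were AT3G29633, AT2G14570, AT5G35935, AT2G19960 and AT1G55205.

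**Figure D1:**
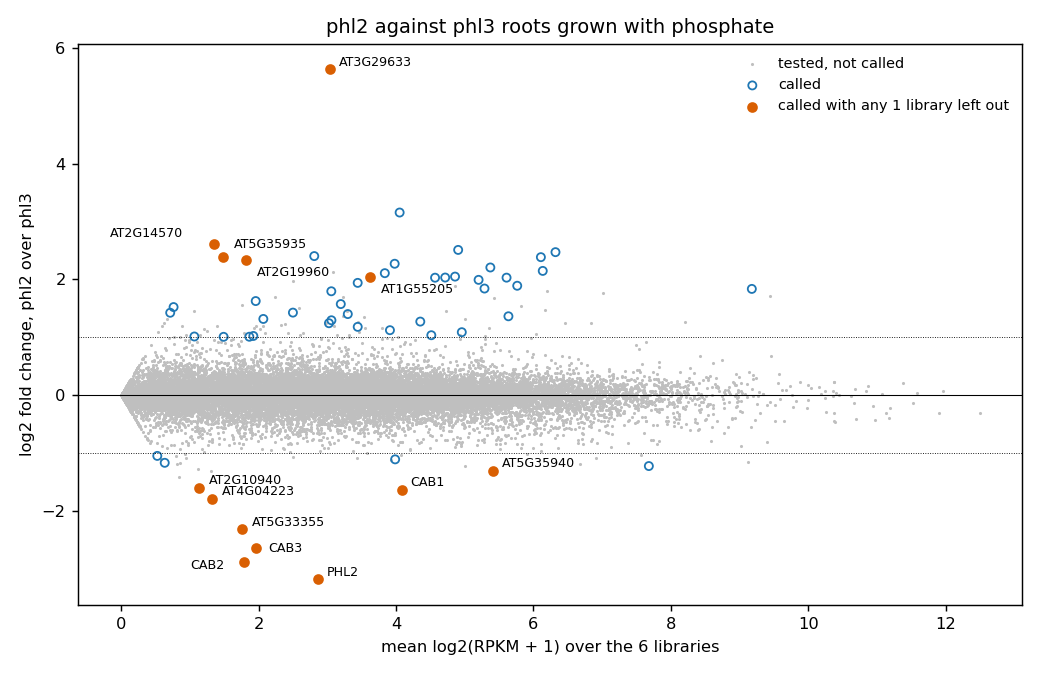
Each point is 1 of the 21206 genes tested, with the mean log2(RPKM + 1) over the 6 libraries on the x axis and the log2 fold change of phl2 over phl3 on the y axis (dotted lines at 1 and -1). Open circles are called genes and filled, named points the 13 that were called whichever library was left out, from PHL2 at -3.18 to AT3G29633 at 5.63.

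The largest difference was in AT3G29633, an uncharacterised protein-coding gene. It stood at 52.7, 54.0 and 64.5 RPKM in phl2 and at 0.598 RPKM in phl3 replicate 1, and was listed at 0 in phl3 replicates 2 and 3. The log2 fold change was 5.63 ± 0.46 (limma, adjusted p = 3.6e-13). Under -Pi the same gene held 50.2, 60.4 and 59.7 RPKM in phl2 and 0.432, 2.06 and 2.02 RPKM in phl3. The 6 libraries labelled phl2 alone ranged from 50.2 to 64.5 RPKM, while the other 66 reached at most 4.66 RPKM.

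The high level was not shared by the other genotypes that carry phl2. The 18 libraries of phr1phl2, phr1phl1phl2 and the quadruple mutant held 0 to 3.62 RPKM of AT3G29633, although PHL2 was low in them too. AT2G14570, annotated as a pseudogene, had the same pattern: 6.09, 4.56 and 5.44 RPKM in phl2 against 0, 0.105 and 0 in phl3 (log2 fold change 2.62 ± 0.06, limma adjusted p = 1.3e-36). It entered the test only through the libraries labelled phl2 alone, and most other groups were at 0 throughout, which narrows its pooled SE. In a fit of the 6 libraries alone its adjusted p was 0.00013 (limma). AT2G14570 was listed at 0 in all 18 of those higher-order libraries, and no library outside phl2 alone exceeded 0.105 RPKM. In the gene order of the TAIR10.1 annotation, AT3G29633 lies 846 genes from PHL2 on chromosome 3, and AT2G14570 lies on chromosome 2.

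A second pair of genes lie side by side. AT5G35935, annotated as a pseudogene, held 5.49, 5.63 and 5.07 RPKM in phl2 and 0.194, 0.326 and 0.164 RPKM in phl3, a log2 fold change of 2.38 ± 0.14 (limma, adjusted p = 1.4e-18). All 6 libraries labelled phl3 alone lay between 0.153 and 0.326 RPKM, and the other 66 between 1.06 and 7.62 RPKM. Col under +Pi held 1.06, 1.58 and 1.41 RPKM, above phl3 and below phl2. The next gene along chromosome 5 in that annotation, AT5G35940, encodes a mannose-binding lectin family protein and differed the other way. It stood at 25, 27.4 and 25.6 RPKM in phl2 and at 77.2, 64.0 and 58.1 RPKM in phl3 (log2 fold change -1.31 ± 0.18, limma adjusted p = 2.4e-06).

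Under -Pi, AT5G35940 held 222, 216 and 248 RPKM in phl2 and 665, 602 and 595 RPKM in phl3, a log2 fold change of -1.44 (limma, adjusted p = 7.7e-08). The 33 libraries under -Pi other than phl3 ranged from 22.1 to 287 RPKM. Under +Pi the other 33 ranged from 12.6 to 58.4 RPKM and overlapped the phl3 libraries, with phl4 replicate 3 above phl3 replicate 3. In the libraries labelled phr1phl3 and in the quadruple mutant, AT5G35935 held 3.44 to 5.01 and 4.26 to 7.54 RPKM. The low level of that gene was thus not found in the other genotypes with phl3 in the label.

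AT4G04223, a noncoding RNA, was lower in phl2, at 0.607, 0.278 and 0.192 RPKM against 3.56, 3.51 and 3.96 RPKM in phl3 (log2 fold change -1.79 ± 0.16, limma adjusted p = 4.0e-12). The quadruple mutant held 2.1 to 5.48 RPKM, which overlapped the 3.51 to 5.43 RPKM of the 6 libraries labelled phl3 alone. The remaining 60 libraries did not exceed 1.02 RPKM, those labelled phr1phl3 included. Its exons match AT3G56210 over 100% of their length at 99.3% identity and AT5G38005 over 75.8% at 94.1%, so reads could be split among them. AT3G56210 held 5.77, 4.48 and 5.48 RPKM in phl2 and 6.77, 7.08 and 7.0 in phl3 and was not called. AT5G38005 held 6.98 to 9.83 RPKM in phl2 and 13.5 to 18.0 in phl3, also without a call (limma, adjusted p = 0.31).

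**Figure D2:**
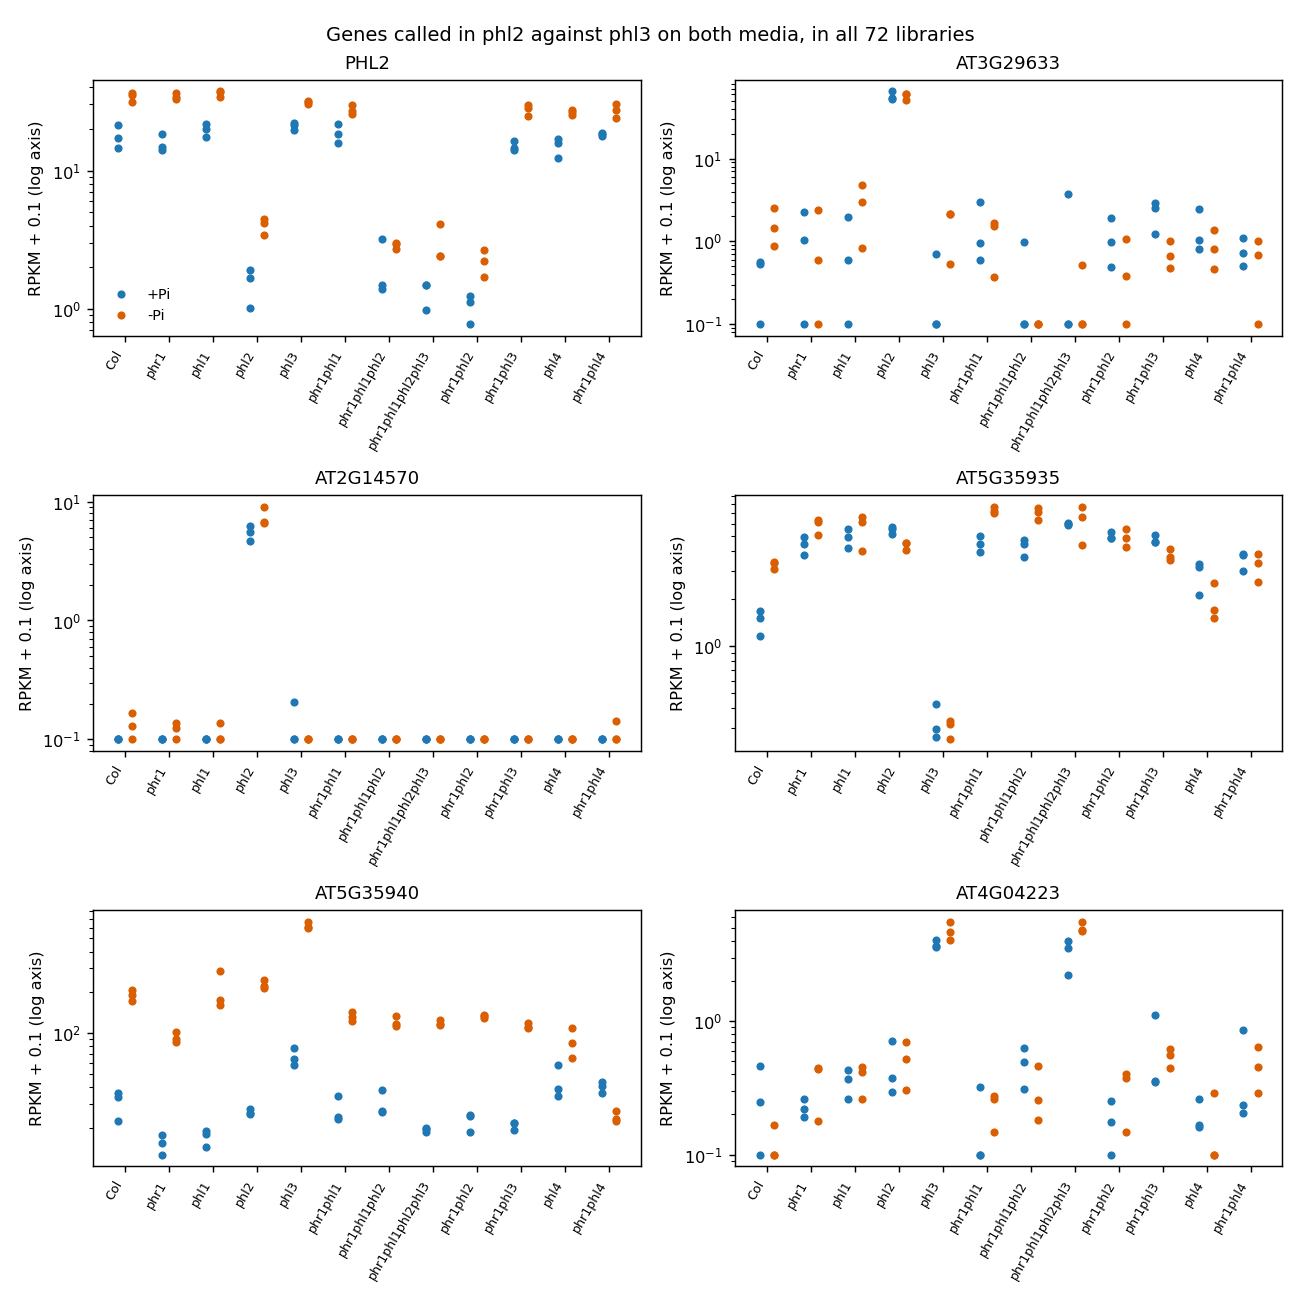
Levels of the 6 genes called in the same direction on both media, in all 72 libraries (RPKM plus 0.1 on a log axis, 1 point per library, genotypes on the x axis, +Pi in blue and -Pi in orange). AT3G29633 and AT2G14570 are high in phl2 alone, AT5G35935 is low in phl3 alone, AT5G35940 is highest in phl3 under -Pi and overlaps phl4 under +Pi, and AT4G04223 is high in phl3 and the quadruple mutant.

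A tandem group of 3 light-harvesting genes was lower in phl2. CAB1, CAB2 and CAB3 encode chlorophyll a/b-binding proteins of the photosystem II antenna and lie in tandem on chromosome 1. CAB2 held 0.292, 0.356 and 0.185 RPKM in phl2 and 8.21, 8.32 and 8.64 RPKM in phl3, and CAB3 held 0.420, 0.667 and 0.586 against 8.39, 10.2 and 7.67 RPKM. CAB1 was more abundant, at 7.43, 8.87 and 9.63 RPKM in phl2 and 28.7, 33.8 and 24.7 RPKM in phl3. The groups did not overlap in any of the 3 genes. The share of all genes tested with phl2 below every phl3 library was not counted, and phl2 lay above in 12.6%.

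The log2 fold changes were -2.88 ± 0.52 for CAB2, -2.64 ± 0.50 for CAB3 and -1.63 ± 0.30 for CAB1 (limma, adjusted p = 0.00097, 0.0017 and 0.0013). The 3 genes are near copies, with 94.1% identity between CAB2 and CAB3 and 96.1% between CAB1 and either, over 62.6% to 84.2% of their exons. The split of reads among them is uncertain, and CAB1 also overlaps NRPA2, a subunit of RNA polymerase I, on the other strand. NRPA2 held 20.8 to 23.1 RPKM in phl2 and 15.3 to 19.5 RPKM in phl3 and was not called. Col under +Pi held 13.8 to 21.0 RPKM of CAB2, and the 33 libraries under +Pi other than phl2 ranged from 0.933 to 65.9 RPKM. The phl2 libraries were therefore below every other library under +Pi for CAB2, as they were for CAB3 (at most 0.667 against at least 1.54 RPKM) and CAB1 (at most 9.63 against at least 12.8 RPKM).

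The photosynthesis list as a whole leaned the same way. Of its 27 genes, all tested and CAB3 not among them, 2 were called lower (CAB1 and CAB2; 0.0566% of all genes tested were) and 0 higher. A log2 fold change below 0 was found in 26 of the 27, against 46.5% of all genes tested, and the median was -0.29 against 0.01 over all genes tested. Its other 25 members were not called and ranged from -1.41 (RBCS3B, a Rubisco small subunit) to 0.09 (PSBO2, at 0.20 without phl3 replicate 1). The summed level of the list was 318 to 328 RPKM in phl2, 395 to 441 RPKM in phl3 and 555 to 1191 RPKM in Col. In bulk roots, fewer green cells and less of these transcripts per cell cannot be told apart. Under -Pi the median of the list was 0.30, and CAB1 stood at 0.293 to 0.617 RPKM in phl2 and 0.142 to 0.279 RPKM in phl3.

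Other genes lower in phl2 came from several families. AT5G33355, a defensin-like gene, held 1.11, 0.677 and 0 RPKM in phl2 and 5.2, 6.86 and 7.92 RPKM in phl3 (log2 fold change -2.31 ± 0.38, limma adjusted p = 0.00018). Its near copy AT3G59930, which matches 55.2% of its exons at 97.5% identity, held 16.7 to 22.2 RPKM in phl2 and 44.1 to 55.9 RPKM in phl3 but was not called (adjusted p = 0.34 by limma). AT3G05730, also defensin-like, was listed at 0 in all 3 phl2 libraries and held 0.902, 1.67 and 0.743 RPKM in phl3. AT2G10940, of the lipid-transfer and seed storage protein family, stood at 0.253, 0.464 and 0.0964 RPKM against 3.84, 2.02 and 2.86 RPKM.

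TIP2;3, a water and ammonia channel of the vacuolar membrane, held 130, 142 and 128 RPKM in phl2 and 316, 331 and 292 RPKM in phl3. Its log2 fold change was -1.22 ± 0.25 (limma, adjusted p = 0.0053), and Col ranged from 160 to 367 RPKM. TIP2;3 lost its call without phl3 replicate 2 and in a fit of the 36 libraries under +Pi (limma, adjusted p = 0.054 and 0.079). It was the most abundant of the 12 lower genes and the only called member of the 19 aquaporins tested, against 0.0566% called lower over all genes. Of the 19, 16 lay below 0 (46.5% of all genes did), with a list median of -0.16. TGG1, a myrosinase, and AT2G15830, an uncharacterised gene, completed the 12. TGG1 was at most 0.0569 RPKM in phl2 and 1.16 to 1.53 RPKM in phl3, and its call was lost with any 1 library left out (limma, adjusted p = 0.057 without phl3 replicate 1). AT2G15830 held 10.8, 8.20 and 10.6 RPKM in phl2 and 17.1, 28.4 and 22.8 RPKM in phl3, with Col at 6.98 to 14.8 RPKM. Its call was lost without phl2 replicate 2 or phl3 replicate 2 (limma, adjusted p = 0.080 and 0.13).

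Most genes called higher in phl2 were high in phl3 replicate 1 as well. Of the 43, 35 were at least 2-fold higher in phl3 replicate 1 than in both other phl3 libraries. Relative to the phl2 mean, their median log2 level was -0.46 in phl3 replicate 1, -2.32 in replicate 2 and -2.46 in replicate 3. RCI2A, a small membrane protein induced by cold and salt, showed it at high level, with 1206, 989.5 and 1101 RPKM in phl2 and 989.6, 199 and 145 RPKM in phl3. The log2 fold change was 1.84 ± 0.48 (limma, adjusted p = 0.047), and 2.68 without phl3 replicate 1. Col had a like split for RCI2A, with 152 RPKM in replicate 1 and 1279.5 and 807 RPKM in replicates 2 and 3. All 43 were called higher without phl3 replicate 1 as well. In Col, replicate 1 was at least 2-fold below both others for 31 of the 43 genes.

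Of the 43 higher genes, 29 were protein-coding. Their median exon length was 1004 bases, against 1728 over the genes tested with annotation, and their median GC content 37.4% against 41.1%. Of the 43, 7 were snoRNAs, of 66 tested, and 2 were microRNA precursors, of 96 tested, where 0.203% of all genes tested were called higher. In the set, 22 genes overlapped another annotated gene (51.2% against 32.2% of genes tested), so that without a stated strand their reads cannot be assigned with certainty. Removing each library's slopes on gene length and GC content, an alternative added after seeing the data, left 38 genes higher and 15 lower, 42 of them among the 55.

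**Figure D3:**
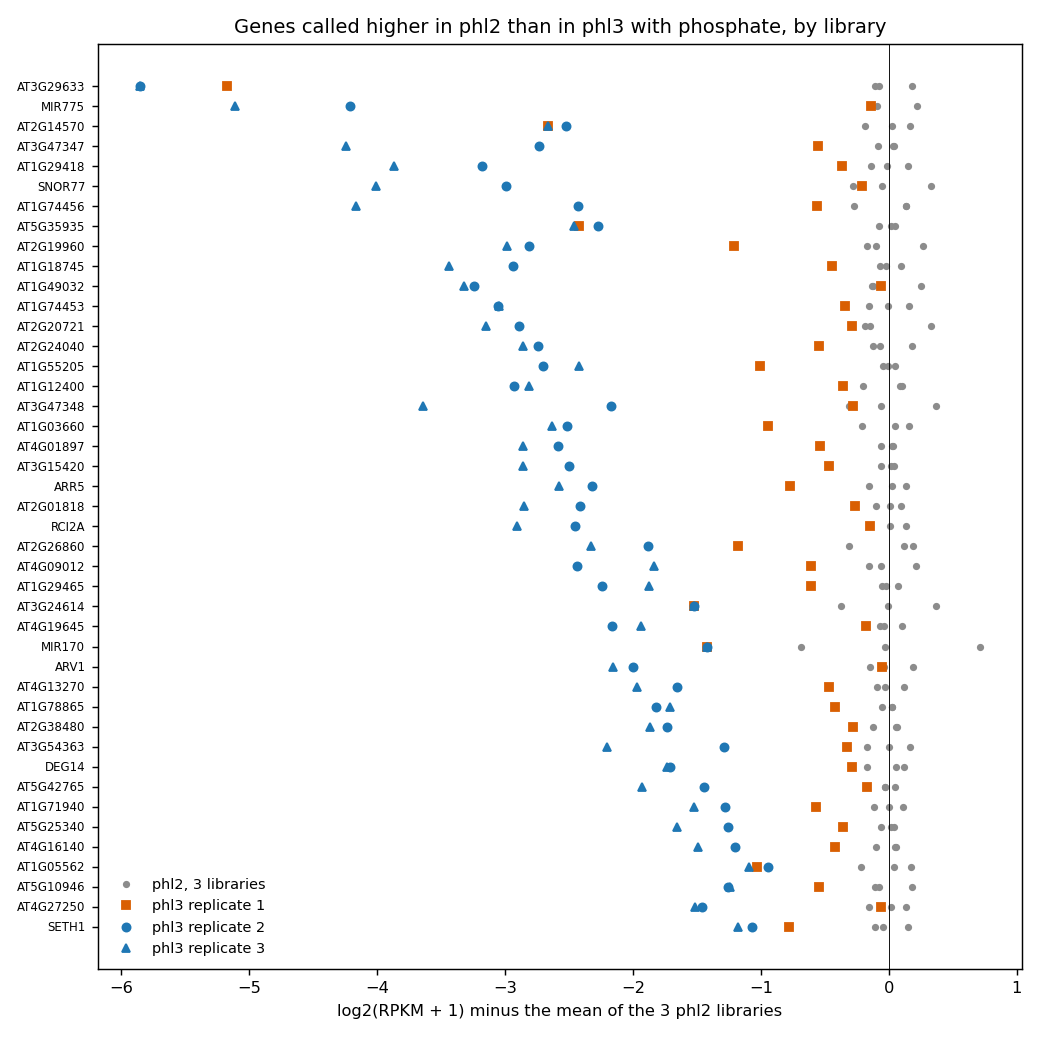
The 43 genes called higher in phl2, 1 per row, with log2(RPKM + 1) of each library relative to the mean of the 3 phl2 libraries on the x axis. Phl3 replicate 1 (squares) lies near the phl2 libraries (grey) for most genes, at a median of -0.46, while replicates 2 and 3 lie at medians of -2.32 and -2.46.

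MIR775, a microRNA precursor, had the second largest fold change of the higher genes. It held 56.8, 44.2 and 45.5 RPKM in phl2 and 43.9, 1.67 and 0.433 RPKM in phl3 (log2 fold change 3.16 ± 0.69, limma adjusted p = 0.011, and 4.66 without phl3 replicate 1). Small nucleolar RNAs (snoRNAs) guide chemical modification of ribosomal RNA. Those among the 12 higher genes of largest fold were AT3G47347 (2.51 ± 0.58), SNOR77 (2.4 ± 0.57), AT1G74456 (2.38 ± 0.57) and AT1G74453 (2.15 ± 0.53). Without phl3 replicate 1 these 4 values were 3.49, 3.5, 3.3 and 3.05. In AT1G74453 the phl2 libraries held 164, 132 and 147 RPKM and the phl3 libraries 116, 16.8 and 16.9 RPKM. The noncoding RNA AT1G18745 (2.27 ± 0.50) and the uncharacterised AT1G29418 (2.47 ± 0.51) and AT1G49032 (2.21 ± 0.51) also had phl3 replicate 1 nearer to the phl2 libraries than to its group mates. Without it their values were 3.19, 3.52 and 3.28 on the log2 scale.

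ARR5, a type-A response regulator induced by cytokinin, was the only called member of the hormone response list. It held 114, 106 and 92.8 RPKM in phl2 and 60.2, 19.9 and 16.6 RPKM in phl3 (log2 fold change 1.89 ± 0.38, limma adjusted p = 0.0034). Its relative ARR15 stood at 5.87, 6.99 and 5.86 RPKM against 6.47, 2.42 and 2.31 RPKM and was not called (adjusted p = 0.57 by limma). Both were higher in phl3 replicate 1 than in phl3 replicates 2 and 3. Without that library the log2 fold changes were 2.45 for ARR5 and 1.101 for ARR15 (limma, adjusted p = 5.4e-05 and 0.17).

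The groups did not overlap in 37 of the 43 higher genes, and in 12.6% of all genes tested the phl2 libraries lay above every phl3 library. Of the 43, 5 were called with any 1 library left out. AT2G19960, a gene with a dimerisation domain of hAT transposases, held 8.54, 6.42 and 6.04 RPKM in phl2 and 2.42, 0.131 and 0 RPKM in phl3 (log2 fold change 2.34 ± 0.35, limma adjusted p = 3.4e-05). AT1G55205 held 23.3, 23.9 and 24.9 RPKM against 11.4, 2.85 and 3.66 RPKM (2.04 ± 0.35, adjusted p = 0.00035 by limma). Neither of these 2 genes was called in a fit of the 6 libraries alone (limma, adjusted p = 0.062 for AT2G19960 and 0.080 for AT1G55205). The other 3 were AT3G29633, AT2G14570 and AT5G35935, described above. The microRNA precursor MIR170 and the snoRNA AT3G24614 were listed at 0 in all 3 phl3 libraries and held 0.670 to 3.40 and 1.22 to 2.72 RPKM in phl2. No fold is given for these 2 genes.

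With phl3 replicate 1 as the only phl3 library, an alternative added after seeing the data, 11 genes were called, 4 higher and 7 lower. Of these, 7 were among the 55, namely PHL2, AT3G29633, AT2G14570, AT5G35935, AT5G35940, AT4G04223 and AT1G05562. AT1G05562, a long noncoding RNA, held 3.66, 4.55 and 5.11 RPKM in phl2 and 1.65, 1.81 and 1.53 RPKM in phl3 (log2 fold change 1.02 ± 0.14 over all 6 libraries, limma adjusted p = 2.4e-06). The other 4 were lower in phl2, namely TSA1 (AT1G52410), AT3G29410, AT3G59710 and AT2G34985. TSA1, a protein linked to the endoplasmic reticulum and cell division, held 2.36, 3.07 and 3.27 RPKM in phl2 and 7.44, 5.97 and 6.73 RPKM in phl3. Over all 6 libraries TSA1 lay just under the fold threshold, at -0.99 ± 0.11 (limma, adjusted p = 4.2e-08). The lone library is assumed in that fit to vary like the other groups. CAB1 and CAB2 differed there by -1.63 and -2.85 on the log2 scale without a call (adjusted p = 0.29 and 0.28 by limma).

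Phosphate starvation genes had no calls under +Pi, where 0.259% of all genes tested were called and 0.915% passed at any fold. At those shares, lists of this size would mostly hold no call. None of the 13 tested genes of phosphate signalling, 18 of phosphate transport, 15 phosphatases and ribonucleases or 13 of lipid remodelling was called or had an adjusted p under 0.05, and their list medians were 0.00, 0.02, -0.00 and 0.05. SPX1, an inhibitor of PHR1 that is itself strongly induced by starvation, held 7.62, 8.58 and 7.91 RPKM in phl2 and 8.41, 8.44 and 7.15 RPKM in phl3. Its log2 fold change had a 95% interval of -0.44 to 0.46, and was 0.04 without phl3 replicate 1. SPX3 had the largest difference of the signalling genes, with 1.26, 0.857 and 0.771 RPKM against 0.564, 0.523 and 0.174 RPKM (0.47 ± 0.20, limma adjusted p = 0.38).

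Among transporters, PHT1;1, a main phosphate uptake carrier of the root, held 132, 132 and 136 RPKM in phl2 and 147, 153 and 170 RPKM in phl3 (-0.23 ± 0.13, limma adjusted p = 0.65). PHT2;1, the plastid carrier, differed by 0.21 ± 0.13 on the log2 scale (0.14 without phl3 replicate 1). PAP24, a purple acid phosphatase, differed by 0.44 ± 0.14 and BFN1, a nuclease, by -0.31 ± 0.29. DGD2 and DGD1, which make the galactolipid that replaces phospholipids, differed by 0.23 ± 0.14 (0.38 without phl3 replicate 1) and 0.22 ± 0.15, with adjusted p of 0.71 and 0.77 by limma.

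Over all 28 gene lists, 404 of 432 genes were tested and 5 were called, beside 0.259% of all genes tested. At that share most lists would hold no call, and 24 lists had 0 called members. A further 10 list genes had an adjusted p under 0.05 below the fold threshold, so that 15 of the 404 passed at any fold beside 0.915% of all genes. Of the nitrate genes, BT1, a scaffold protein induced by nitrate, held 22.3, 23.0 and 22.4 RPKM in phl2 and 38.7, 41.0 and 35.2 RPKM in phl3 (-0.73 ± 0.15, limma adjusted p = 0.0039). HRS1 (AT1G13300), a repressor at the meeting of nitrate and phosphate signals, held 50.7, 52.0 and 56.0 RPKM against 75.4, 73.1 and 72.7 RPKM (-0.47 ± 0.11, adjusted p = 0.017 by limma). The groups did not overlap in either gene, though the share of all genes with phl2 below every phl3 library was not counted. The list median was -0.20.

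Iron genes went both ways. CYP82C4, which makes an iron-mobilising coumarin, was higher in phl2 by 0.43 ± 0.11 and F6'H1, the enzyme that opens coumarin synthesis, was lower by -0.40 ± 0.09 on the log2 scale (limma, adjusted p = 0.029 and 0.012). IRT1, the iron carrier of the root surface, held 223, 186 and 217 RPKM in phl2 and 178, 370 and 341 RPKM in phl3, a log2 fold change of -0.44 (limma, adjusted p = 0.48). IRT1 was lower in phl3 replicate 1 than in its group mates, and without that library the fold change was -0.77 (adjusted p = 0.038 by limma). Iron uptake had a median of 0.10 over 25 tested genes and iron storage one of 0.00 over 9.

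Stress and clock genes differed in single members. HSP70-4, a cytosolic chaperone, held 42.6, 46.9 and 47.3 RPKM in phl2 and 30.5, 29.4 and 30.1 RPKM in phl3 (0.59 ± 0.12, limma adjusted p = 0.0058). HSFA2, a heat shock transcription factor at 0.512 RPKM or less, also passed at any fold (0.39 ± 0.10), and the list's median of 0.32 over 9 tested genes was the highest of the 28. ELF4, a component of the evening complex of the clock, held 12.4, 10.5 and 14.7 RPKM against 19.5, 34.8 and 21.7 RPKM (-0.93 ± 0.21, adjusted p = 0.017 by limma), and was called without phl3 replicate 1 (-1.09). ALD1, which makes the immune signal pipecolic acid, was lower by -0.37 ± 0.09 at levels under 1 RPKM. The clock list had a median of -0.03 over 23 genes.

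**Figure D4:**
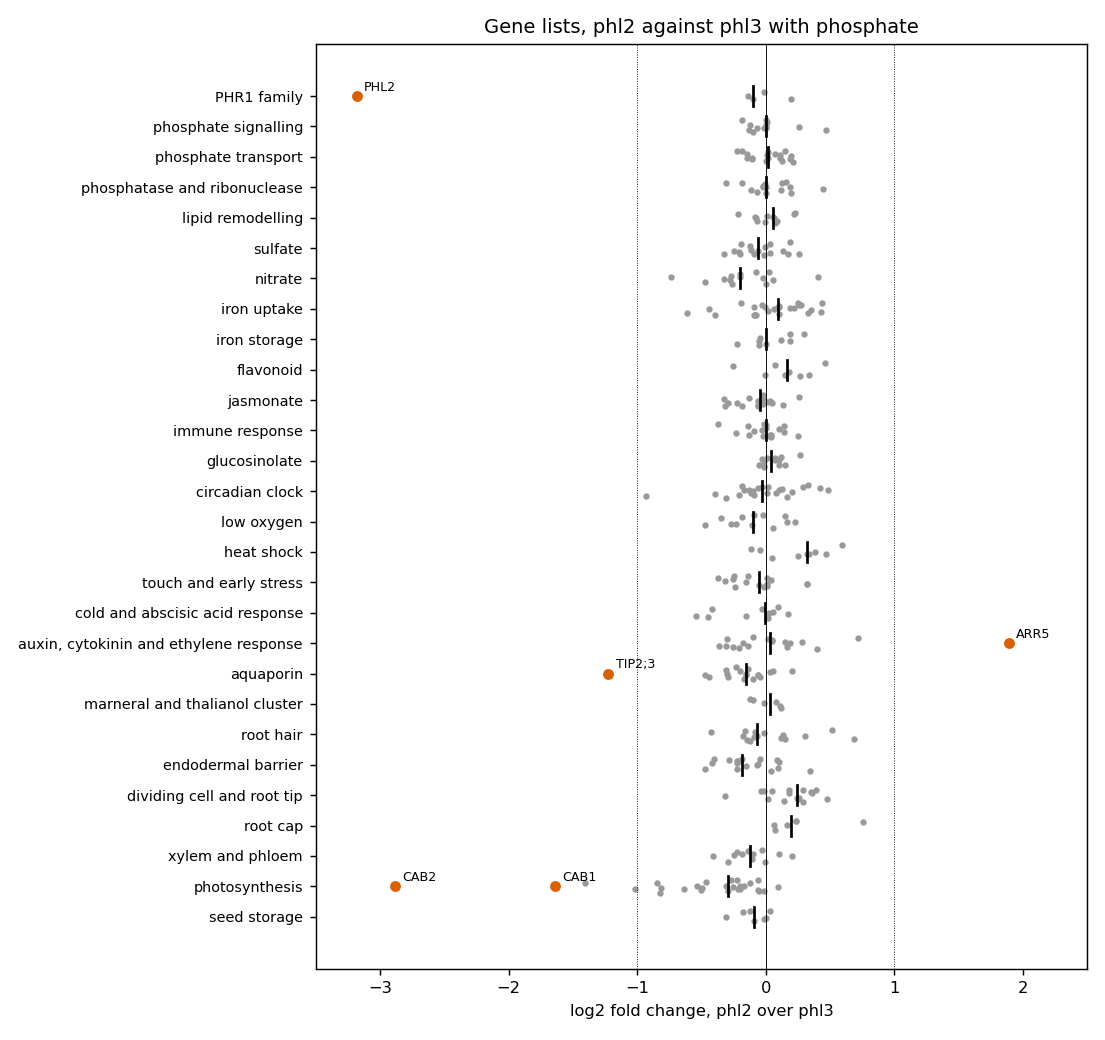
Log2 fold changes of phl2 over phl3 with phosphate for the tested genes of 28 lists, 1 point per gene (grey not called, orange called and named), with the list median as a black bar and dotted lines at 1 and -1. The 5 called genes are PHL2, CAB1, CAB2, TIP2;3 and ARR5, and list medians run from -0.29 for photosynthesis to 0.32 for heat shock.

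The other lists had 0 called genes except ARR5 in the hormone response list, where 0.259% of all genes tested were called. Their medians were -0.06 for sulfate, 0.16 for flavonoid, -0.04 for jasmonate, 0.00 for immune response, 0.04 for glucosinolate, -0.10 for low oxygen, -0.05 for touch and early stress and -0.01 for cold and abscisic acid response. The marneral and thalianol cluster had a median of 0.03, and the hormone response list, with ARR5, one of 0.03. FLS1, a flavonol synthase, differed by 0.46 ± 0.17 (limma, adjusted p = 0.22).

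Markers of root cell types were summed per library. Root hair markers summed to 476 to 483 RPKM in phl2 and 468 to 488 RPKM in phl3. RSL1, a transcription factor of root hair cells, was higher by 0.68 ± 0.18 (limma, adjusted p = 0.049) at 5.80, 4.87 and 4.18 RPKM against 3.67, 1.92 and 2.65 RPKM. FEZ, a transcription factor of root cap stem cells, was higher by 0.76 ± 0.15 (adjusted p = 0.0041 by limma) at 1.78, 2.05 and 1.53 RPKM against 1.12, 0.321 and 0.583 RPKM.

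Summed levels of 4 other marker lists, beside photosynthesis above and seed storage below, did not overlap between the groups. Among single genes, the phl2 libraries lay above every phl3 library in 12.6% of those tested. The share in which they lay below every phl3 library was not counted. Endodermal barrier genes summed to 850 to 856 RPKM in phl2 and 957 to 983 in phl3, and xylem and phloem genes to 469 to 504 and 529 to 546 RPKM. Dividing cell genes were higher in phl2, at 224 to 231 against 192 to 212 RPKM, as were root cap genes at 57.2 to 60.2 against 47.8 to 52.6 RPKM. The medians of these 4 lists were -0.19, -0.12, 0.24 and 0.20, and no member was called (0.259% of all genes tested were). Seed storage genes were near 0 in both groups, with sums of 0.274 to 1.326 RPKM in phl2 and 1.330 to 1.67 RPKM in phl3. The part of cell composition in the differences above was not tested.

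The same genotypes without phosphate gave libraries that the +Pi comparison did not use. There limma called 22 genes higher and 10 lower in phl2, 32 in all (0.151% of genes tested, 0.104% higher and 0.0472% lower). Of the 55 genes called under +Pi, 6 were also called under -Pi, which is 10.9% of one set and 18.8% of the other, and all 6 had the same direction. They were PHL2, AT3G29633, AT2G14570, AT5G35935, AT5G35940 and AT4G04223. The remaining 49 were not called under -Pi, the CAB genes and TIP2;3 among them (TIP2;3 at -0.62, limma adjusted p = 0.76). Flavonoid genes had a median of 0.94 under -Pi over the 8 tested. FLS1 held 55.4, 59.7 and 63.1 RPKM in phl2 and 28.1, 27.8 and 25.3 RPKM in phl3 there and was called (log2 fold change 1.1, limma adjusted p = 1.3e-05), while its difference between media did not pass (adjusted p = 0.39 by limma).

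Whether a difference depended on the medium was tested directly. The phl2 and phl3 libraries of each medium were less alike across media. Slopes of log2 deviation on GC content (per 10 percentage points) were 0.57 to 0.84 under +Pi and -0.44 to -0.22 under -Pi. Their RPKM summed to 565187 to 593835 under +Pi and to 687654 to 732858 under -Pi. The interaction passed for 19 genes (0.0896% of genes tested), 8 with a higher phl2 over phl3 difference under +Pi (0.0377%) and 11 with a lower one (0.0519%). CAB1 and AT5G33355 were lower in phl2 with phosphate and not without it, and the interaction was -1.92 ± 0.43 for CAB1 (limma, adjusted p = 0.024, passed in 5 of 12 fits that left out 1 library) and -2.71 ± 0.54 for AT5G33355 (adjusted p = 0.0077 by limma, passed in 12 of 12). CAB2 and CAB3 did not pass it, with -2.89 and -2.60 on the log2 scale and adjusted p of 0.077 and 0.12 by limma. Under -Pi all of these CAB genes were near the floor. CAB1 was at most 0.617 RPKM in phl2 and 0.279 RPKM in phl3, and CAB2 and CAB3 at most 0.0645 and 0.0950 RPKM in either group. The log2(RPKM + 1) scale understates changes there, and the part of this in the interaction was not tested. AT1G55205, AT1G03660, AT2G38480 and AT5G10946 were higher in phl2 under +Pi and passed it, though AT1G55205 and AT1G03660 did so in 1 and AT2G38480 in 6 of those 12 fits. Without phl3 replicate 1 of the +Pi group, 99 genes passed. With a pseudocount of 0.1, 25 passed, 13 of them among the 19. With slopes on gene length and GC content removed, added after seeing the data, 24 passed, 16 of them among the 19. The part of other differences between the libraries of the media was not tested.

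**Figure D5:**
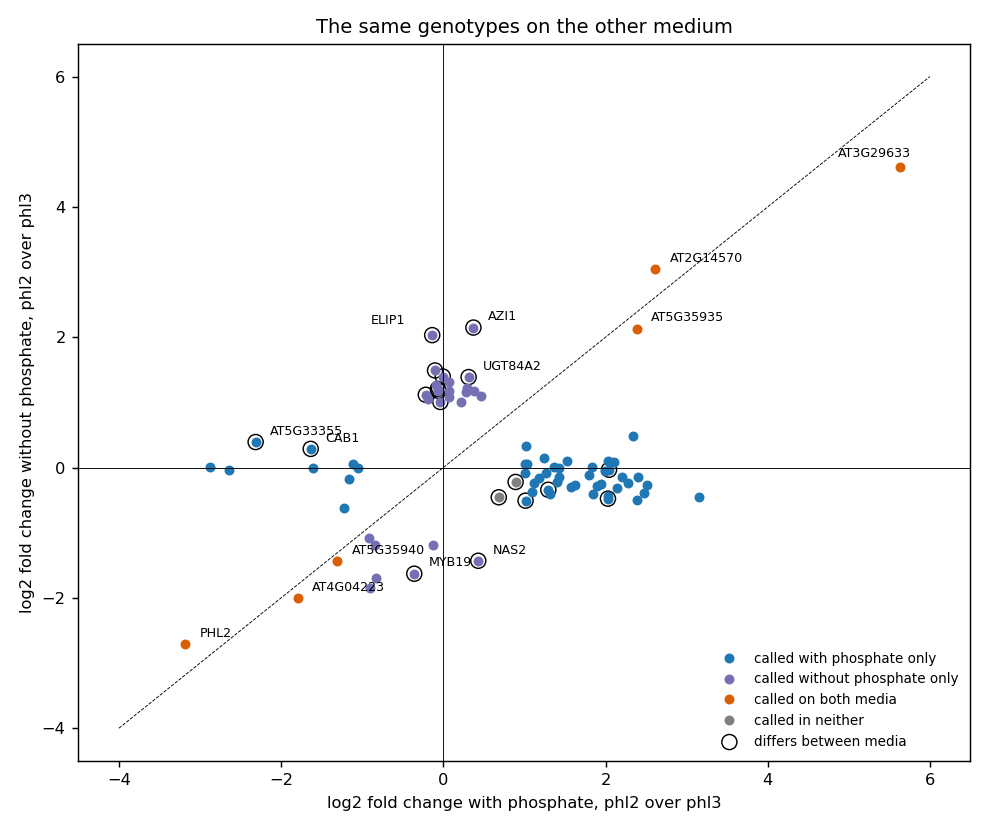
Log2 fold changes of phl2 over phl3 with phosphate (x axis) and without it (y axis) for genes called on either medium or in the test of the difference (circled), 1 point per gene, with the line of equality dashed. The 6 genes called on both media (orange) lie near that line, and most others lie near one axis.

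The double mutants set the same labels against each other on a phr1 background. Between phr1phl2 and phr1phl3 under +Pi, limma called 7 genes higher and 574 lower, 581 in all (2.74%, with 0.033% higher and 2.71% lower). Only PHL2 was shared with the 55, and in the same direction. Those 2 groups were less alike as libraries, with slopes of log2 deviation on GC content (per 10 percentage points) of 0.02 to 0.76 in phr1phl2 and -0.21 to -0.13 in phr1phl3, against 0.57 to 0.84 in the 6 libraries of phl2 and phl3. The count fell to 29 without phr1phl2 replicate 1 and to 104 without replicate 2, and rose to 1106 without replicate 3. The part of these slopes in the count was not tested.

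No gene beside the mutated loci was called, where 0.259% of all genes tested were. At that share, sets of this size would mostly hold no call. Of the 20 annotated neighbours of PHL2, 10 on either side, 14 were tested and 0 were called, with log2 fold changes from -0.84 to 0.60. Of the 20 around PHL3, 16 were tested and 0 were called, from -0.78 to 0.28. The P1BS-like motif GNATATNC, which reads the same on both strands, was sought from 250 bases before to 50 bases after each annotated start in TAIR10.1. It lay in 2 of the 55 called genes (3.64%, exact binomial 95% interval 0.443% to 12.5%) and in 6.36% of the genes tested.

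QQS, a gene of starch metabolism found only in Arabidopsis, was low in both groups, at 0.366, 0.536 and 0.185 RPKM in phl2 and 0.294, 0.934 and 0.363 RPKM in phl3. It differed by -0.15 ± 0.41 (log2) between them (limma, adjusted p = 0.99; -0.26 without phl3 replicate 1). Col under +Pi held 24.9, 116 and 69.8 RPKM, above all 6 libraries.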

How the data were processed

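RNA-seq values were used as the authors deposited them, in 1 table of RPKM with 33602 genes and 72 columns, matched to the labels by name (0 left over, 0 identical pairs). TopHat, edgeR and the TAIR10 build are named, without version or role, per the submitters' processing notes. Read strand is not given either. Gene names, lengths, GC content, overlaps, order and promoter windows came from the RefSeq annotation of TAIR10.1, which 32835 IDs matched. Its build name differs from the authors', so no coordinates or sequences are printed.

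Log2(RPKM + 1) was fitted with limma 3.58.1 (R 4.3.3) over 72 libraries with 24 group means and trended, robust empirical Bayes moderation. A gene entered if 3 or more libraries reached 1 RPKM. The fit was checked on simulated data with independent noise for each gene. No simulated library stood apart from its group, so the check does not cover that case. Near copies were sought with blastn 2.17.0+ (at least 90% identity over at least 50% of a gene's exons). Python 3.11.15 with numpy 2.4.6 and pandas 2.3.3 handled the tables.

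The genotypes compared, the 28 gene lists and the tests were chosen with earlier results of these data known. Named genes were taken from the PHR1 family, the 12 called genes with the largest fold change in each direction, the called and the 2 most changed members of each list, genes called again in the other comparisons, and QQS. Others, such as SPX1, RCI2A, MIR170, AT1G05562, TSA1, near copies and genes that passed only the test between media, were chosen after their values were seen. Each of these was changed in turn: the pseudocount (0.1), the filter (none, 29088 genes), median ratio rescaling, the libraries fitted (36 or 6), robust moderation, a replicate term and each library left out. Others are said to be added after seeing the data.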

Additional observations from a re-analysis of the deposited data

Results flagged for a closer look

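The difference between phl2 and phl3 itself differed between +Pi and -Pi in 19 genes, by limma's test of the interaction with Benjamini-Hochberg adjustment. The values below are the log2 fold change of phl2 over phl3 with phosphate minus that without it.

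In 9 genes phl2 was called higher than phl3 without phosphate and not called with it. These were ELIP1, an early light-induced protein (-2.17), AZI1, a lipid-transfer-like protein of systemic immunity (-1.78), LTP4, a lipid-transfer protein (-1.59), TT7, the flavonoid 3′-hydroxylase (-1.40), the pectin lyase-like AT5G14650 (-1.33), UGT84A1 (-1.27) and UGT84A2 (-1.08), which put glucose on phenylpropanoid acids, AT5G52390 (-1.24) and 4CL3, a ligase of phenylpropanoid synthesis (-1.04). AZI1, for one, held 15.7, 12.2 and 10.6 RPKM in phl2 and 8.48, 12.3 and 8.32 RPKM in phl3 with phosphate, and 74.8, 76.8 and 71.7 against 16.4, 15.7 and 16 RPKM without it. CAB1 (-1.92) and AT5G33355 (-2.71) were called lower in phl2 with phosphate and not called without it, where CAB1 was at most 0.617 RPKM in either group.

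Of the 8 genes with a positive value, NAS2, a nicotianamine synthase (1.86), and MYB19 (1.27) were called lower in phl2 without phosphate. NAS2 held 3.37, 3.46 and 2.51 RPKM in phl2 and 9.77, 10.3 and 9.97 RPKM in phl3 there. AT1G03660 (2.51), AT1G55205 (2.08), AT2G38480 (1.64), AT5G10946 (1.52), RSL1 (1.14) and MDO1 (1.11) were higher in phl2 with phosphate, at an adjusted p under 0.05 at least. Without phl3 replicate 1 the +Pi log2 fold change of MDO1 went from 0.89 to 1.06, and MDO1 was called higher. That of TT7 went from -0.0068 to -0.20, 4CL3 from -0.036 to -0.13, LTP4 from -0.10 to -0.17 and ELIP1 from -0.14 to -0.21. AT5G52390 changed sign, from -0.060 to 0.069. Apart from MDO1, none of these genes was called with phosphate either way. Of the 12 fits that left out 1 library, AT1G03660 and AT1G55205 passed in 1, CAB1, MDO1 and RSL1 in 5, AT2G38480 in 6, ELIP1 in 9, 4CL3 in 10, and AT5G10946 and AT5G14650 in 11, while AZI1, TT7, UGT84A1, UGT84A2, LTP4, NAS2, MYB19, AT5G33355 and AT5G52390 passed in all 12.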

How the results depend on the processing

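PHL2 stayed called in the same direction in every alternative run (log2 fold change -3.82 to -3.02) and PHL3 in none. The 55 calls became 119 with a pseudocount of 0.1 (80 higher, 39 lower), 28 in a fit of the 6 libraries alone (10 higher), 22 in the 36 libraries under +Pi (10 higher), and 17 to 133 with 1 library left out (6 to 117 higher, 9 to 16 lower). Phl3 replicate 1 as the only phl3 library gave 11 (4 higher, 7 lower), and removal of length and GC slopes without that library 126 (100 higher, 26 lower). Rescaling, no filter and moderation that is not robust stayed within 1.5 times. In the fit of the 6 libraries alone, limma's adjusted p rose for PHL2 (0.00011) and AT3G29633 (2.1e-05) and fell for CAB2 (4.7e-05).

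The replicate number did not pair the libraries: same-numbered libraries deviated together at r = -0.07, 0.02 and -0.00. The replicate block gave 60 calls, and 14 (4 higher) in a fit of the 6 libraries alone. Of the 13 genes called with any 1 library left out, AT2G10940, AT2G19960 and AT5G33355 (adjusted p = 0.052 each by limma) and AT1G55205 (0.095) lost their calls with the block there.

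Under -Pi, 26 to 31 genes were called with 1 library left out, between phr1phl2 and phr1phl3 29 to 1106, and in the test between media 12 to 99. List genes called went from 5 to 11 with a pseudocount of 0.1, to 1 with phl3 replicate 1 alone, and ran from 3 to 6 with 1 library left out. Named genes called went from 25 to 15 in the 6 libraries, 14 in the 36, 10 with the block in the 6, 6 with phl3 replicate 1 alone and 12 to 25 with 1 library left out. The motif share was 0% in the fit of the 6 libraries, with the block there and with slopes removed, and 0% to 5.34% with 1 library left out.

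With phl3 replicate 1 as the only phl3 library, the log2 values of PHR1 (AT4G28610) (-0.0090), PHL1 (0.040), PHL4 (0.060), DGD2 (-0.072), IRT1 (0.22), VTL2 (-0.069), SUR1 (-0.0051), HRE2 (0.0089), ARR15 (-0.049), BRN1 (-0.072) and QQS (0.066) changed sign. With slopes removed and that library left out, VIT1 (0.17) and EM6 (0.061) did. With 1 library left out the range included both signs for PHL1 (-0.052 to 0.053), PHL4 (-0.20 to 0.027), VIT1 (-0.48 to 0.066), BRN1 (-0.033 to 0.39) and QQS (-0.26 to 0.029). None of these 13 genes was called over all libraries. The cause was not tested. The lone phl3 library is assumed to vary like the other groups, and both kinds of slope removal and that fit were added after seeing the data. Values under about 1 RPKM rest on few reads.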
